A study of Mus musculus with 12 samples.

Results

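Hearts of mice carrying the R172K form of mutant IDH2 were compared with hearts of mice carrying the R140Q form, to see where the transcriptomes of the 2 mutant hearts part. The comparison takes the 8 mutant arrays, 4 per form, out of 12 mouse heart arrays, chosen by their titles, and the remaining 4 control arrays serve as a reference level. All mice were of mixed strain, with Balb/c, C57BL/6 and 129/sv ancestry. At 5 weeks of age both kinds of mutant mice were given 2 mg 4-hydroxytamoxifen (4-OHT), a ligand that activates tamoxifen-dependent Cre, over 3 days, so the drug does not separate the mutants. Not stated in the labels are the allele design, the Cre driver, any treatment of controls, the sex of the mice and the time from treatment to dissection. Total RNA of each heart was read on an Affymetrix mouse Gene 1.0 ST array, and 19937 genes were tested. Nothing in the labels says that replicates are separate animals, so the p-values may reflect technical spread alone.

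IDH2 is the mitochondrial, NADP-dependent isocitrate dehydrogenase, which interconverts isocitrate and 2-oxoglutarate. R140Q and R172K each change an arginine of the active site, and both mutant enzymes reduce 2-oxoglutarate to D-2-hydroxyglutarate, a metabolite that can inhibit dioxygenases that use 2-oxoglutarate. In the heart, fatty acid oxidation and the tricarboxylic acid cycle supply most of the energy, and IDH2 also helps to regenerate mitochondrial NADPH.

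Idh2 itself (chromosome 7) was bright in all mutant hearts. On the log2 intensity scale used throughout, its values were 12.41, 12.57, 12.27 and 12.53 in R140Q hearts and 12.52, 12.55, 12.57 and 11.88 in R172K hearts. The 2 groups overlapped, and the difference of -0.07 ± 0.14 (SE), R172K minus R140Q, did not pass the test (limma adjusted p = 0.887). Its sign turned in 3 of 23 alternative settings. The sources do not say whether this probe set reads the mutant transcript, so the labels are not checked by it.

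The R172K hearts were the more variable group. The median SD of a gene over 4 arrays was 0.141 in R172K, 0.105 in R140Q and 0.104 in control hearts. Each SE and p-value below rests on a spread per gene that is shared by all groups, control included. Where R172K hearts varied more than the other groups, that shared spread can understate their own. R172K 3 correlated best with control 4 (r = 0.9918 across genes, which are not independent replicates), while R172K 1 and 2 correlated best with each other (0.9959). R172K 4 had the lowest best correlation of the 12 arrays (0.9891, with R172K 1) and the lowest mean correlation with its own group (0.9844). It lay at 34.97 on the first principal component of the mutant arrays, where the other R172K hearts lay between -14.84 and 16.75. R172K 3 was also the R172K array nearest to the R140Q hearts for 190 of the 296 genes called below, against 57 for R172K 4, 31 for R172K 2 and 18 for R172K 1. R140Q 4 stood apart in lung genes: surfactant protein C (Sftpc) read 11.57 there and 4.66 to 5.37 in the other R140Q hearts.

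R172K hearts had less mRNA of the chaperone Hsph1 and the integrin subunit Itgb6 than R140Q hearts, and more of the glutamine transporter Slc38a1, the imprinted gene Peg3 and the stress gene Sprr1a. A total of 296 genes changed between the mutants at a limma adjusted p under 0.05, which is 1.48% of the genes tested. Of these, 97 (0.487%) were higher and 199 (0.998%) lower in R172K hearts. In what follows, rose and fell describe R172K hearts against R140Q hearts and not against control. Their median change was 1.41-fold, and 21 genes (0.105%) changed by at least 2-fold, 13 higher and 8 lower. Centring every array on its own median gave 69 higher and 252 lower instead. The 4 against 4 arrays did not overlap for 287 of the 296, against 7.72% of all genes. The calls were made on these same arrays, so the lack of overlap in called genes adds no support to them. For 243 of the 296, or 82.1%, the control mean lay nearer to the R140Q mean than to the R172K mean, and the share over all genes was 59.6%. The median difference over all genes was -0.003. Gene lists below that hold a lone call give no result about the list as a group. Hsph1, Itgb6, Slc38a1 and Peg3 were picked for this comparison with earlier results of these data known. They count among the calls of the heat shock chaperone, integrin, amino acid transporter and imprinted gene lists. The shares called in those lists are not independent of that choice. The number of calls rested on single arrays, being 1 without R140Q 4 or without R172K 1 and 1577 without R172K 3. With the 8 mutant arrays alone 9 genes were called, and Hsph1, Itgb6, Slc38a1, Peg3 and Sprr1a were not among them.

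**Figure D1:**
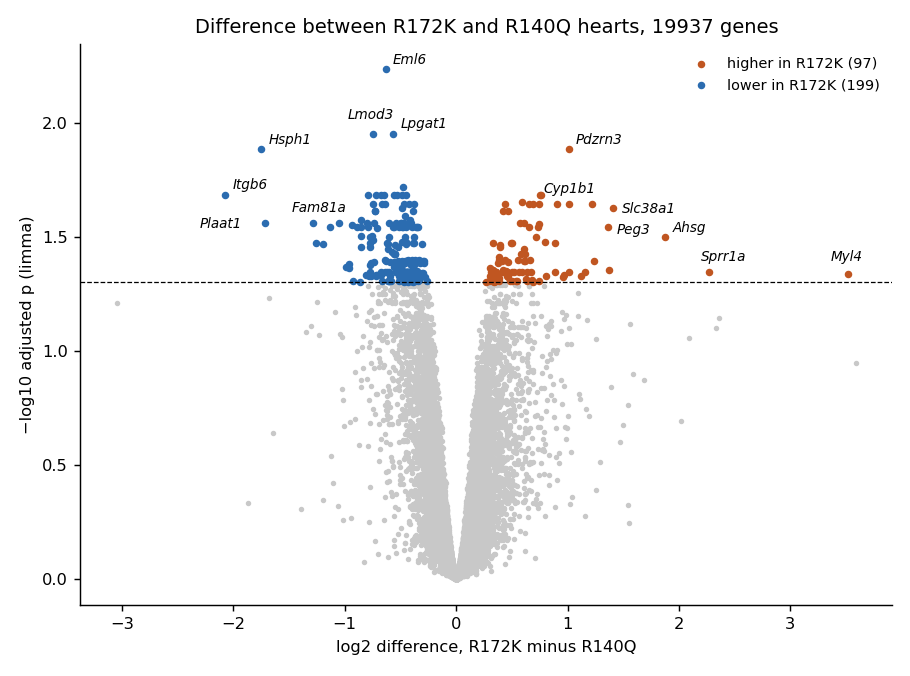
Each point is a gene, with the log2 difference of R172K minus R140Q hearts on the x axis and −log10 of the limma adjusted p on the y axis. Orange and blue points passed an adjusted p of 0.05 (dashed line); 97 lie to the right and 199 to the left, and Eml6 alone lies above an adjusted p of 0.01.

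Hsph1 (chromosome 5), which encodes the HSP110 chaperone that acts as a nucleotide exchange factor for HSP70, was among the genes with the largest called decreases in R172K hearts. It read 8.85, 8.68, 8.88 and 9.18 in R140Q hearts and 6.70, 6.74, 7.86 and 7.28 in R172K hearts, beside 8.34, 8.53, 8.79 and 8.84 in control hearts. All 4 R172K hearts lay below every R140Q and control heart, with R172K 1 and 2 the lowest. The difference was -1.75 ± 0.22 (limma adjusted p = 0.0131), a 3.37-fold lower level in R172K hearts. R140Q hearts differed from control by 0.27 (adjusted p = 0.608). The Hsph1 call was lost without R140Q 1, R140Q 4, R172K 1 or R172K 2 (largest adjusted p = 0.0546), and the difference ran from -1.99 to -1.60 with an array left out. Without R172K 3 it was -1.99 (adjusted p = 0.000205).

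Heat shock genes are switched on by heat shock factors, which bind repeats of the unit GAA in alternating orientation. In 20 heat shock chaperone genes measured, 2 were lower and none higher in R172K hearts, with a median of -0.12. That is 10% of the list, a share that counts Hsph1, beside 0.998% of all genes called lower. The other member that fell was Hspa4l (-0.34, adjusted p = 0.0469), an HSP110 relative of Hsph1. Of 23 co-chaperones and factors, 4 (17.4%) fell and none rose, with a median of -0.11. These were Chordc1 (-0.54, adjusted p = 0.0453), a partner of HSP90, the HSP90 ATPase activators Ahsa1 (-0.37, adjusted p = 0.0452) and Ahsa2 (-0.45, adjusted p = 0.0453), and Cacybp (-0.35, adjusted p = 0.0287), which binds the ubiquitin ligase Siah1. Cacybp read 10.67, 10.69, 10.73 and 10.71 in R140Q hearts and 10.27, 10.36, 10.36 and 10.41 in R172K hearts. The 2 groups did not overlap in any of these 6 genes. Against control, Hspa4l, Cacybp, Ahsa1 and Ahsa2 passed in neither mutant, with the R140Q mean above control and the R172K mean below it. Chordc1 was below control in R172K hearts (-0.72, adjusted p = 0.00333). The differences of 37 of the 43 members did not pass, among them Fkbp4 (-0.84, adjusted p = 0.0862), Dnajb1 (-0.75, adjusted p = 0.18), the stress-inducible HSP70 gene Hspa1a (-0.56, adjusted p = 0.529), Hsp90aa1 (-0.35, adjusted p = 0.0872) and the small heat shock genes Hspb1 (-0.14) and Cryab (0.05).

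The promoter windows of these genes were searched for 3 alternating units spaced as in a heat shock element, the sequence that heat shock factors are known to bind. The motif was GAANNTTCNNGAA or TTCNNGAANNTTC, which are each other's reverse complement, on either strand, with overlapping matches counted. Windows ran from 250 bases before to 50 after the transcript start and come from RefSeq on GRCm38.p6. A match was found in 179 of 27025 genes with a window (0.662%). Of the 43 heat shock members measured, 37 had a window, and 4 of these held a match: Hsph1 and Chordc1, which fell, and the mitochondrial chaperonin genes Hspd1 (-0.38, adjusted p = 0.179) and Hspe1 (-0.36, adjusted p = 0.307), which did not pass. Thus 2 of the 6 genes that fell and 2 of the 31 others with a window held the motif. Hspd1 and Hspe1 both lie on chromosome 1, and whether their windows share a site was not tested. The stretches around the motif are printed below for the 2 genes that fell and for Hspe1, 5′ to 3′ on the strand of the gene, with the motif in capitals. They lie at chr5:149636287-149636316 (minus strand) for Hsph1, chr9:18292260-18292289 (plus strand) for Chordc1 and chr1:55088053-55088082 (plus strand) for Hspe1.
Hsph1: agtaaaatgctgcagaTTCTGGAAAGTTCt
Chordc1: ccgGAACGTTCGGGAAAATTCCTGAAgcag
Hspe1: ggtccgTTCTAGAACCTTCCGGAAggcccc
In Hsph1 the motif lay after the transcript start, at positions 37 to 49, in Chordc1 it spanned the start with 3 overlapping matches, and in Hspe1 it lay before the start with 2. A match is a run of letters, and no binding was measured here.

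**Figure D2:**
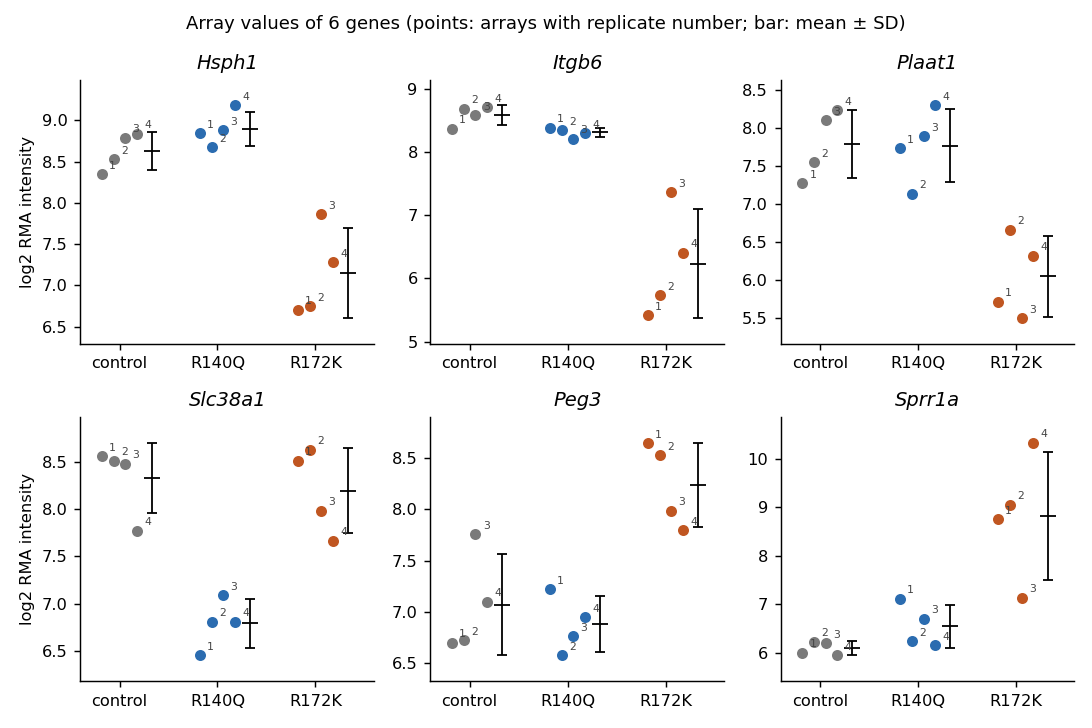
The y axes give log2 RMA intensity and each point is an array, numbered by replicate, in control, R140Q and R172K hearts; bars are means ± SD of 4 arrays. Hsph1, Itgb6 and Plaat1 lie lower in all 4 R172K hearts than in every R140Q heart, Peg3 and Sprr1a lie higher, and for Slc38a1 the R140Q hearts lie below every heart of the other groups.

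Itgb6 (chromosome 2) had the largest called decrease. It encodes the beta 6 integrin subunit, which pairs with alpha v and can release active TGF-beta from its latent complex. Its values were 8.38, 8.35, 8.21 and 8.29 in R140Q hearts and 5.42, 5.74, 7.36 and 6.41 in R172K hearts, beside 8.36, 8.68, 8.58 and 8.70 in control hearts. R140Q hearts were tightly grouped near control, whereas every R172K heart was lower and R172K 3 the least so. The SD of Itgb6 was 0.86 in R172K, 0.08 in R140Q and 0.15 in control hearts. The SE given next rests on a spread shared by these groups, smaller than that of R172K hearts. The difference of -2.07 ± 0.31 (limma adjusted p = 0.0207) is a 4.21-fold lower level in R172K hearts. It was lost as a call without R140Q 1, R140Q 4, R172K 1 or R172K 2 (largest adjusted p = 0.0741), and was -2.45 (adjusted p = 0.000117) without R172K 3.

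Among 24 integrin subunit genes, Itgb6 and Itga1 fell (8.33%, beside 0.998% of all genes) and none rose, with a median of 0.09. Itga1, the alpha 1 subunit of a collagen receptor, read 9.84, 9.75, 9.87 and 9.81 in R140Q hearts and 9.13, 8.995, 9.45 and 9.64 in R172K hearts. Here it was the R140Q hearts that stood away from control (0.63, adjusted p = 0.0184), while R172K hearts differed from control by 0.12 (adjusted p = 0.582). The difference between the mutants was -0.51 ± 0.11 (adjusted p = 0.0492), and it passed in 6 of 23 alternatives. The alpha v partner Itgav (0.27, adjusted p = 0.346) and the related subunits Itgb5 (0.20) and Itgb8 (0.24, with its sign turned in 2 of 23 alternatives) did not pass. In 24 integrin adaptor and TGF-beta pathway genes, 1 rose (4.17%, beside 0.487% of all genes higher and 1.48% called) and none fell, which is no result about the list. Tgfbr2, the type II TGF-beta receptor gene, was higher by 0.37 ± 0.08 (adjusted p = 0.0411). It read 8.79, 8.76, 8.89 and 8.73 in R140Q and 9.27, 9.07, 9.01 and 9.31 in R172K hearts, and the call held in 1 of 12 fits with an array left out, the fit without R172K 3.

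Slc38a1 (chromosome 15), the gene of a sodium-coupled transporter of glutamine and other small neutral amino acids, passed against control in R140Q hearts and did not pass in R172K hearts. It read 6.45, 6.81, 7.09 and 6.81 in R140Q hearts, 8.51, 8.63, 7.98 and 7.66 in R172K hearts and 8.56, 8.51, 8.48 and 7.77 in control hearts. All R140Q hearts lay below all others, and the R172K range overlapped that of control. R172K exceeded R140Q by 1.41 ± 0.23 (limma adjusted p = 0.0237), or 2.65-fold. R140Q hearts differed from control by -1.54 (adjusted p = 0.00545), in a comparison that called 2.2% of genes. R172K hearts differed from control by -0.13 (adjusted p = 0.774), in a comparison that called 13%. These contrasts share arrays with each other. The call between the mutants was lost without R140Q 1, R140Q 4, R172K 1 or R172K 2 (largest adjusted p = 0.0861), and the difference was 1.48 (adjusted p = 0.00512) without R172K 3.

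Of 29 amino acid transporter genes, 3 (10.3%, beside 0.487% of all genes) rose and none fell in R172K against R140Q hearts, with a median of 0.19. Slc43a1, a carrier of large neutral amino acids, was higher by 0.49 ± 0.09 (adjusted p = 0.0339) and Slc36a4, a proton-assisted type amino acid transporter gene, by 0.59 ± 0.12 (adjusted p = 0.045). Slc43a1 had its lower values in R140Q hearts (5.98, 6.11, 6.32 and 6.16) with R172K (6.45, 6.59, 6.80 and 6.69) near control (6.40 to 6.62), whereas Slc36a4 had R140Q near control and R172K above it. The neighbouring family member Slc38a4 was low in both mutants, at 5.77, 5.42, 5.61 and 5.29 in R140Q and 5.16, 5.77, 6.49 and 5.64 in R172K hearts against 7.42 to 7.94 in control. It did not pass between the mutants (0.25, adjusted p = 0.671, sign turned in 3 of 23 alternatives). Slc38a2 (0.29), Slc7a5 (0.35) and Slc3a2 (0.30) did not pass either.

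Peg3 (chromosome 7), an imprinted gene expressed from the paternal allele that encodes a zinc finger protein, was higher in R172K hearts. Its values were 7.22, 6.58, 6.76 and 6.95 in R140Q hearts and 8.65, 8.53, 7.99 and 7.80 in R172K hearts. Control hearts read 6.70, 6.72, 7.76 and 7.10, so control 3 came just below the lowest R172K heart while the other controls lay with R140Q. The difference was 1.36 ± 0.25 (limma adjusted p = 0.0287), or 2.57-fold, and passed in 6 of 12 fits with an array left out, failing without any of the R140Q arrays, R172K 1 or R172K 2. Without R172K 3 it was 1.45 (adjusted p = 0.00815). Among 24 imprinted growth genes Peg3 rose, Cdkn1c fell and 22 did not pass (8.33% called, beside 1.48% of all genes), with a median of -0.01. Cdkn1c, a maternally expressed inhibitor of cyclin-dependent kinases, went from 7.32, 7.42, 7.33 and 7.15 in R140Q to 6.92, 6.82, 7.07 and 6.66 in R172K hearts (-0.44 ± 0.09, adjusted p = 0.04). The genes next to Peg3 in its imprinted domain, Usp29 (0.06) and Zim1 (-0.24), were dim and did not pass, nor did Igf2 (-0.11), Dlk1 (0.01), Grb10 (-0.08), Mest (-0.01) or Plagl1 (0.39, adjusted p = 0.0955). The sign of Igf2, Dlk1 and Mest turned in at least 2 of 23 alternatives.

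The remaining large decreases came from genes of several kinds. Plaat1, a phospholipase and acyltransferase gene, read 7.73, 7.14, 7.89 and 8.30 in R140Q and 5.72, 6.66, 5.50 and 6.32 in R172K hearts (-1.72, adjusted p = 0.0275). It differs from Hsph1 and Itgb6 in that R172K 3 was its lowest heart. Fam81a (-1.28), Cfap20dc (-1.26), Morn2 (-1.19), Intu (-0.93), a planar polarity effector needed for cilia, and Ccdc189 (-0.89) also fell, with adjusted p from 0.0275 to 0.0342. Muscle genes were among them: Ky, which encodes a sarcomeric Z-disc protein of muscle, fell by 1.13, Sh3bgr by 0.96, and Lmod3, the actin filament nucleator leiomodin 3, went from 10.26, 9.9997, 10.30 and 10.23 to 9.51, 9.57, 9.41 and 9.32 (-0.75 ± 0.09, adjusted p = 0.0112). Lmod3, Lpgat1, an acyltransferase gene (-0.57, adjusted p = 0.0112), and the ubiquitin ligase gene Pdzrn3 passed in 10 of 12 fits with an array left out and failed without R140Q 4 or R172K 1. Cyclin D2 (Ccnd2, -0.96) and the water channel Aqp8 (-1.05) fell as well. For Aqp8 the R140Q hearts lay above control (6.72, 6.49, 6.89 and 7.51 against 5.88 to 6.28) and the R172K hearts did not (5.61 to 6.10).

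**Figure D3:**
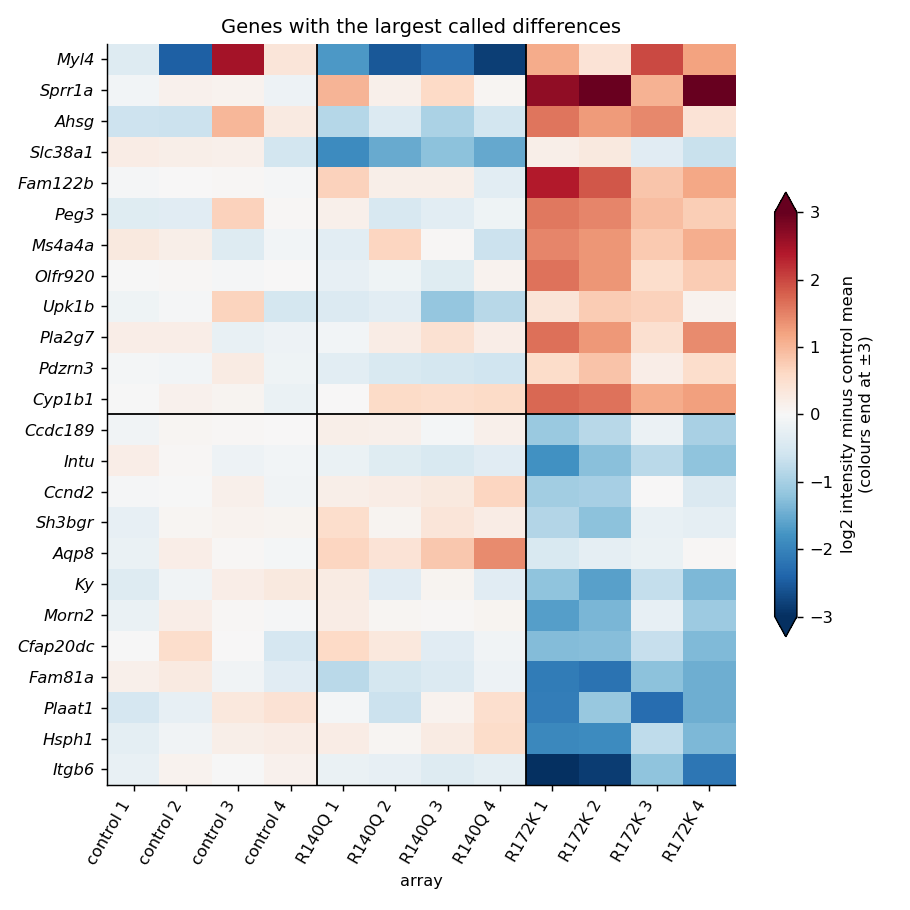
Rows are the 12 largest called increases and 12 largest called decreases, R172K against R140Q, among genes whose 4 against 4 arrays do not overlap, and columns are the 12 arrays. Colour gives the log2 intensity minus the control mean of the gene, with colours ending at ±3; for most rows the R140Q columns are pale and the R172K columns coloured, R172K 3 often least, while for Slc38a1 and Aqp8 the R140Q columns carry the colour and for Myl4 the control arrays differ widely.

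The large increases included Sprr1a, a small proline-rich protein gene known to be induced in stressed heart muscle. It read 7.11, 6.24, 6.70 and 6.15 in R140Q hearts and 8.75, 9.05, 7.14 and 10.33 in R172K hearts, so R172K 3 was only just above R140Q 1. The difference was 2.27 ± 0.48 (adjusted p = 0.0452), and it passed in 2 of 12 fits with an array left out, at 2.83 without R172K 3 (adjusted p = 0.000923) and 1.76 without R172K 4 (adjusted p = 0.0417). Pdzrn3 was higher by 1.01 ± 0.13 (adjusted p = 0.0131), from 8.27, 8.14, 8.08 and 7.996 to 9.14, 9.46, 8.80 and 9.13, with control (8.48 to 8.85) between the mutants. Fam122b (1.37), the membrane protein gene Ms4a4a (1.23), the secreted phospholipase gene Pla2g7 (1.01) and the cytochrome P450 gene Cyp1b1 (1.01) also rose, with adjusted p from 0.0226 to 0.045. Olfr920 rose by 1.22 (adjusted p = 0.0228) at a low level, its mean ranking at percentile 22.9 of all genes. The liver glycoprotein gene Ahsg (fetuin A) rose by 1.88 (adjusted p = 0.0317) with control 3 (8.20) inside the R172K range of 7.61 to 8.81. The RNA-binding protein gene Rbm3, known to be induced by cold, rose by 0.89 (adjusted p = 0.0339), and its relative Cirbp differed by 0.69 (adjusted p = 0.0704).

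The largest called difference of all was in Myl4, the atrial essential myosin light chain gene. It read 8.98, 8.17, 8.44 and 7.88 in R140Q hearts and 11.82, 11.13, 12.70 and 11.91 in R172K hearts (3.52 ± 0.76, adjusted p = 0.0458). Control hearts ran from inside the R140Q range to above the R172K range, at 10.32, 8.25, 13.20 and 11.06. Other genes of atrial muscle had all 4 R172K hearts above all R140Q hearts without passing: Myl7 (3.58, adjusted p = 0.113), Dkk3 (1.497, adjusted p = 0.211) and Sln (0.98, adjusted p = 0.215). Of 14 atrial markers measured, Myl4 rose (7.14%, beside 0.487% of all genes) and 13 did not pass, 12 differences were positive, and their median was 0.65. Their summed intensity was 7165 to 17652 in R140Q, 19435 to 29579 in R172K and 12809 to 38401 in control hearts, highest in control 3. Bright genes weigh most in this sum, such as the atrial natriuretic peptide gene Nppa, at percentile 99.5 of all genes. Nppa overlapped between the mutants and did not pass (1.54, adjusted p = 0.47), and it read 7.85 in R140Q 2. With Myl7 intensity as a covariate, an alternative chosen after seeing the data, the Myl4 difference was 1.12 and no longer passed, and 5 genes in all were called. Hsph1 differed by -2.18 in that fit (adjusted p = 0.0178), whereas the calls of Itgb6 (-2.54, adjusted p = 0.06), Slc38a1 (1.62, adjusted p = 0.0809) and Peg3 (1.07, adjusted p = 0.191) were lost. Myl7 itself did not overlap between the mutants, so in that fit its level and the genotype are largely the same split of the hearts. The part of the atrial signal in the other differences was not tested beyond this fit, and in whole hearts a larger share of a cell type and more RNA per cell cannot be told apart.

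The summed intensity of epicardial and mesothelial markers also separated the mutants. Of 12 markers, 1 rose (8.33%, beside 0.487% of all genes), the uroplakin gene Upk1b (1.16, adjusted p = 0.0452). The other 11 did not pass, among them Msln (0.79, adjusted p = 0.0517) and Upk3b (0.78, adjusted p = 0.226). The summed intensity of the 12 was 1003 to 1286 in R140Q and 1531 to 2182 in R172K hearts, without overlap, and 1028 to 1496 in control hearts. Cardiomyocyte markers had the opposite order, with sums of 116006 to 120819 in R140Q, 95175 to 114640 in R172K and 124675 to 129345 in control hearts. None of those 16 passed, 14 had a negative difference, and the median was -0.13. The nearest to passing were Cox6a2 (-0.30, adjusted p = 0.0512) and the ventricular light chain Myl2 (-0.41, adjusted p = 0.0964).  Lung markers were low in all hearts but R140Q 4, where their sum was 5369 and that of every other mutant heart 567 or less.

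Natriuretic peptide B (Nppb) and skeletal actin (Acta1), standard readouts of cardiac stress, did not differ detectably between the mutants. Nppb read 12.35, 12.10, 12.75 and 12.49 in R140Q and 12.36, 12.38, 11.25 and 12.65 in R172K hearts (-0.26 ± 0.27, adjusted p = 0.716). Acta1 differed by 0.01 ± 0.16 (adjusted p = 0.985). The sign of the first turned in 3 and that of the second in 5 of 23 alternatives. Nmrk2, a kinase gene of NAD synthesis, was high in 3 R140Q hearts (12.05, 10.83 and 12.19), at 8.03 in R140Q 4 and at 11.47 to 12.40 in R172K hearts (1.26 ± 0.69, adjusted p = 0.405). Of 19 cardiac stress and fetal genes, Sprr1a and Myl4 rose (10.5%, beside 0.487% of all genes) and 17 did not pass, with a median of 0.04. Myl4 is also the call among the atrial markers above, with control hearts from 8.25 to 13.20. Sprr1a is thus the only call here that the atrial list does not share.

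Extracellular matrix genes leaned towards R172K hearts but rarely passed. Of 45 measured, 43 had a positive difference and the median was 0.50, yet 1 gene rose (2.22%, beside 0.487% of all genes) and none fell. That gene was thrombospondin 2 (Thbs2), at 8.02, 8.19, 7.73 and 8.22 in R140Q and 8.77, 8.64, 8.69 and 9.02 in R172K hearts (0.74 ± 0.13, adjusted p = 0.0277), with control at 8.399 to 8.84. For Thbs2 it was the R140Q hearts that stood away from control (-0.55, limma adjusted p = 0.0481). R172K hearts differed from control by 0.19 (limma adjusted p = 0.396). The widest differences belonged to the collagen cross-linking enzyme gene Lox and the protease inhibitor gene Timp1. Lox read 6.81, 6.80, 8.20 and 6.88 in R140Q and 10.16, 9.78, 7.28 and 10.90 in R172K hearts (2.36 ± 0.60, adjusted p = 0.0715), so that R172K 3 lay inside the R140Q range. Timp1 did the same (2.33 ± 0.62, adjusted p = 0.0792). Both passed without R172K 3, Lox at 3.11 (adjusted p = 0.000657) and Timp1 at 3.07 (adjusted p = 0.00137), and neither did without R172K 4 (adjusted p = 0.106 for each). The list median was 0.19 without R172K 4 and 0.69 without R172K 3. Activated fibroblast markers, none of 10 passing, had a median of 0.54, or 0.15 without R172K 4, the array with the highest summed intensity (14381, against 4085 to 8442 in R140Q hearts). Of 15 resting fibroblast markers 1 rose (6.67%, beside 0.487% of all genes) and 14 did not pass. The receptor gene Pdgfra rose from 8.76, 8.65, 8.87 and 8.79 to 9.80, 9.61, 9.26 and 9.41 (0.75 ± 0.11, adjusted p = 0.0207). The guidance genes Slit3 (0.80, adjusted p = 0.0334) and Sema3d (0.74, adjusted p = 0.0495) and the glypican gene Gpc3 (0.74, adjusted p = 0.0228) rose too.

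**Figure D4:**
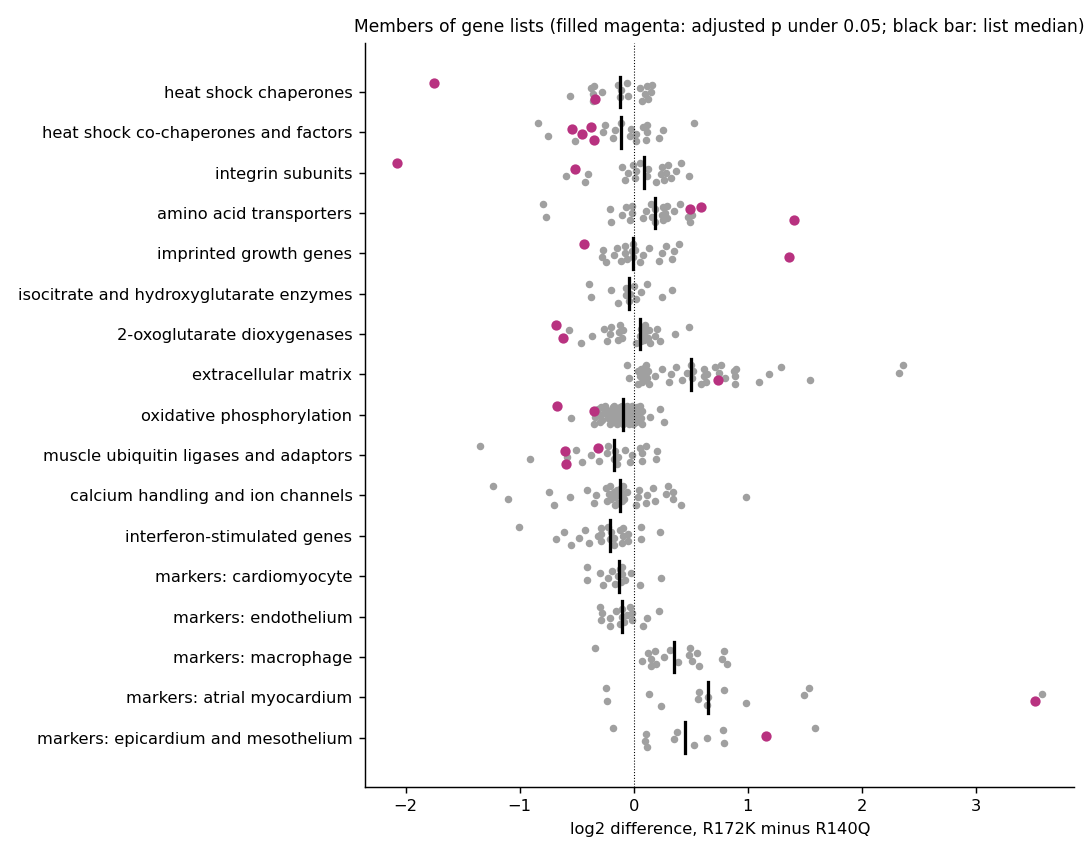
The x axis gives the log2 difference of R172K minus R140Q hearts, each point is a gene of the list named on the y axis, magenta points passed an adjusted p of 0.05, and black bars are list medians. Drawn are 17 of the 50 lists, of which 23 had a called member and 27 had none; the extracellular matrix median lies at 0.50 with 1 call, and the atrial median at 0.65 with 1 call.

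Of 73 oxidative phosphorylation genes, Ndufa2 and Ndufc1 of complex I fell, none rose and 71 did not pass, with 60 negative differences and a median of -0.10. That is 2.74% called, beside 0.998% of all genes lower and 1.48% called in either direction. Ndufa2 read 10.61, 10.46, 10.41 and 10.50 in R140Q and 9.73, 9.72, 10.15 and 9.68 in R172K hearts (-0.68 ± 0.10, adjusted p = 0.0207), and Ndufc1 differed by -0.35 (adjusted p = 0.0468). Without R172K 4 the list median was -0.01. Single genes outside the list, picked because they fell and so no sign of a group, were the assembly factor genes Sdhaf4 of complex II (-0.79, adjusted p = 0.0287), Bcs1l of complex III (-0.78, adjusted p = 0.0468) and Cox20 of complex IV (-0.48, adjusted p = 0.0406), and the mitochondrial ribosomal protein gene Mrpl36 (-0.49, adjusted p = 0.0275). The adenylate kinase genes Ak3 (-0.60, adjusted p = 0.0275) and Ak4 (-0.61, adjusted p = 0.0495), picked in the same way, also fell. None of 29 tricarboxylic acid cycle and pyruvate genes passed (20 negative, median -0.05), none of 25 for mitochondrial biogenesis and dynamics (18 negative, median -0.09) and none of 8 for ketone bodies (4 negative, median -0.09).

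A set of 3 lists of fuel genes held a lone call each, 2.86%, 4.55% and 4% of their members. Beside this, 1.48% of all genes were called, 0.487% higher and 0.998% lower. Such lone calls are no result about fuel genes as groups. Carnitine palmitoyltransferase 1a (Cpt1a), which commits long-chain fatty acids to mitochondrial import and is the form of liver and fetal heart, rose by 0.69 ± 0.11 (adjusted p = 0.0228), from 9.52, 9.26, 9.24 and 9.20 to 9.98, 10.07, 10.24 and 9.69. It was the only call in 35 fatty acid genes, whose median was 0.04. The heart form of the enzyme that makes fructose 2,6-bisphosphate, Pfkfb2, fell by 0.72 (adjusted p = 0.0207), from 9.86, 9.66, 9.84 and 10.01 to 9.17, 9.23, 8.98 and 9.12, alone among 22 glycolysis genes (median -0.07). Phkb, which encodes the beta subunit of the kinase that activates glycogen phosphorylase, fell by 0.57 (adjusted p = 0.0287), alone among 25 glycogen genes (median -0.07). The R172K hearts lay apart from all R140Q hearts for each of these 3 genes.

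Enzymes that make, use or clear 2-oxoglutarate and hydroxyglutarate gave no call in 14 genes (median -0.04). D2hgdh, the mitochondrial enzyme that oxidises D-2-hydroxyglutarate, read 7.87, 8.18, 7.79 and 7.80 in R140Q and 7.30, 7.70, 7.99 and 7.17 in R172K hearts (-0.37 ± 0.16, adjusted p = 0.281), and the groups overlapped. Idh1, the cytosolic enzyme, differed by -0.20 (adjusted p = 0.554). Of 31 dioxygenases that use 2-oxoglutarate, 2 fell (6.45%, beside 0.998% of all genes) and none rose, with a median of 0.06. These were the oxygen sensor Egln1 (PHD2), at 10.997, 11.20, 10.85 and 11.31 in R140Q and 10.33, 10.40, 10.80 and 10.35 in R172K hearts (-0.62 ± 0.12, adjusted p = 0.0339), and the collagen prolyl hydroxylase P4ha2 (-0.68 ± 0.14, adjusted p = 0.045). Both also stand among 23 hypoxia target genes (8.7% fell, beside 0.998% of all genes), of which none rose. In 21 glutamate and branched-chain enzymes the serine synthesis gene Psat1 rose (0.66 ± 0.12, adjusted p = 0.0287) and 20 did not pass. That is 4.76% of the list, beside 0.487% of all genes. Psat1 was the only call (3.85%) in 26 genes of the integrated stress response and serine synthesis too, where Phgdh (0.24), Psph (0.14) and Asns (0.72, adjusted p = 0.447) did not pass.

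Electrical and contractile genes passed in few places. None of 38 calcium handling and ion channel genes passed, with a median of -0.12. The widest difference among its named members was in Kcnip2, the subunit of the transient outward potassium current, at 10.58, 9.89, 10.003 and 10.35 in R140Q and 8.90, 9.07, 10.01 and 7.91 in R172K hearts (-1.23 ± 0.33, adjusted p = 0.0851), where R172K 3 overlapped R140Q. Outside the list and seen after the fact, the calcium-activated potassium channel Kcnn2 (-0.76, adjusted p = 0.0469) and the kinase gene Camk2b (-0.77, adjusted p = 0.0317) fell. Camk2b was above control in R140Q hearts by 0.71 (adjusted p = 0.0252) and near it in R172K hearts (-0.05, adjusted p = 0.859). The largest difference below 0 over all genes belonged to the kinase gene Mylk4 (-3.04, adjusted p = 0.0617), which did not pass. Of 25 muscle ubiquitin ligases and adaptors, Asb10 (-0.60), Asb18 (-0.59) and Fbxo30 (-0.31) fell with adjusted p from 0.0406 to 0.0468 (12%, beside 0.998% of all genes), none rose, and the median was -0.17. Fbxo30 was above control in R140Q hearts by 0.33 (adjusted p = 0.03) and near it in R172K hearts (0.02, adjusted p = 0.909). The sarcospan gene Sspn fell by 0.99 (adjusted p = 0.043) although R172K 3 (9.59) overlapped R140Q 3 (9.56). The transcription regulators Srf (-0.40, adjusted p = 0.04) and Hdac4 (-0.44, adjusted p = 0.049) fell too. Hdac4 was below control in R172K hearts (-0.77, adjusted p = 0.00129), and Srf was not (-0.10, adjusted p = 0.486).

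None of 17 endothelial markers passed, with 14 negative differences and a median of -0.10, and the smallest adjusted p was that of Cdh5 (-0.28, adjusted p = 0.0955). Outside that list, and picked after their values were seen, the endothelial transcription factor Sox7 (-0.66, adjusted p = 0.0227) and thrombomodulin (Thbd, -0.51, adjusted p = 0.0287) fell. None of 6 lymphatic endothelial markers passed (median 0.29), while their summed intensity was 1521 to 1800 in R140Q and 1884 to 2008 in R172K hearts, without overlap, and 1863 to 2180 in control hearts. None of 18 macrophage markers passed, 17 with a positive difference and 8 with an unadjusted p under 0.05. Their median of 0.35 was 0.11 without R172K 4. Their summed intensity ran from 4156 to 10792 in R172K hearts, highest in R172K 4, and from 4750 to 5671 in R140Q hearts. Of single immune genes picked in the same way, the inhibitory Fc receptor gene Fcgr2b (1.12, adjusted p = 0.0468) and Ms4a6b (0.67, adjusted p = 0.04) rose. For Fcgr2b, R172K 3 (7.88) overlapped R140Q 2 (7.91). The interferon-gamma receptor gene Ifngr2 fell by 0.56 (adjusted p = 0.0207), while none of 25 interferon-stimulated genes passed, 22 of them with a negative difference and a median of -0.21. Mdm2, the ubiquitin ligase of p53, fell by 0.45 (adjusted p = 0.0207). None of 17 clock genes, 24 immediate early genes or 29 cell cycle genes passed. Cyclin D2 (Ccnd2) and Cdkn1c, which fell, stand outside the cell cycle list.

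How many genes were called depended on which arrays entered. The count was 5 without R140Q 1, 1 without R140Q 4, 1 without R172K 1 and 5 without R172K 2, and 1577 without R172K 3. It was 45 without R140Q 3, 180 without R140Q 2 and 296 without R172K 4, of which 180 belonged to the original 296. Without control 1, 2, 3 and 4 it was 118, 93, 108 and 101, although control arrays enter this contrast through the estimate of the spread alone. Of the 24 genes with the largest called differences without overlap between the mutants, none passed without R140Q 4 or R172K 1, 1 passed without R140Q 1 or R172K 2, and all 24 passed without R172K 3. With the 8 mutant arrays alone 2 of the 24 passed, and Hsph1, Itgb6, Slc38a1, Peg3 and Sprr1a did not. With the replicate number as a block 2 of the 24 passed, Hsph1 among them. None of the 24 changed sign in any of 23 alternatives. Of the called genes named here, Eml6, a microtubule-associated protein gene, alone passed whichever array was left out (largest adjusted p = 0.0474).

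**Figure D5:**
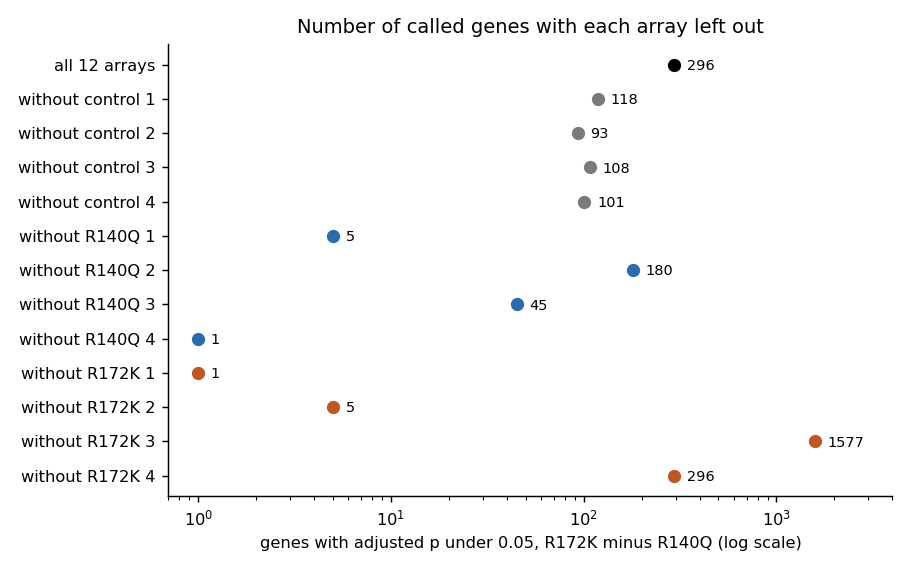
The x axis (log scale) gives the number of genes with an adjusted p under 0.05 for R172K minus R140Q, and each row is a fit to all 12 arrays or with the array named left out. The count falls to 1 without R140Q 4 or R172K 1 and reaches 1577 without R172K 3.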

How the data were processed

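RNA from 12 mouse hearts (4 control, 4 R140Q, 4 R172K) was hybridised to Affymetrix arrays. The deposited table holds RMA intensity values processed by the authors, per the submitters' processing notes. From the values the scale is linear (array medians 74.8 to 78.0, highest value 17591). Neither the RMA version nor an annotation is stated in them. RMA sets arrays to a common distribution, so a shift shared by most genes cannot be seen.

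Log2 was taken without a pseudocount. Of 34760 probe sets, 21640 carried 1 gene symbol, 1321 several and 11799 were not listed in the platform table. The highest-mean probe set stood for each of 954 genes with several. Group means of all 12 arrays were fitted with limma 3.58.1 in R 4.3.3 (lmFit, eBayes, two-sided, 9 residual and 3.54 prior degrees of freedom), with Benjamini-Hochberg adjustment over 19937 genes and calls at 0.05. The script was tested on simulated data. No detection calls were used, so dim genes may lie at background. The number of arrays limits precision.

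The members, the 50 gene lists (966 of 1060 genes measured), the contrast and the tests were chosen with earlier results of these data known. Named were the 12 largest called increases and decreases without overlap, Idh2, up to 6 called members of each list described (up to 3 where none was called), and further genes chosen after their values were seen. Clca3a1 and Rpl14 were left out of the text because of near-identical copies. Alternatives covered the arrays, a replicate block, probe-set choice, a filter on dim genes, normalization, variance model, array weights and thresholds.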

Additional observations from a re-analysis of the deposited data

Results flagged for a closer look

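For 104 genes named above, the 4 arrays of each mutant group were screened for an array that stood apart from the other 3 (Dixon's test). This marked 12 of 208 groups, or 5.77%, and chance marks about 5%. In R172K hearts, replicate 3 was marked 4 times: Cfap20dc at 5.99 (others 5.36 to 5.41), Egln1 at 10.8 (10.33 to 10.4), Ndufa2 at 10.15 (9.68 to 9.73) and Gpt2 at 7.49 (6.58 to 6.66). Each of these values lay on the side of the R140Q hearts. Replicate 4 was marked for Idh2, at 11.88 against 12.52 to 12.57 in the other R172K hearts.

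In R140Q hearts, replicate 1 was marked for Cyp1b1 at 6.63 (others 7.15 to 7.19) and Lpgat1 at 10.18 (others 10.06). Replicate 2 was marked for the atrial natriuretic peptide gene Nppa, at 7.85 where the other R140Q hearts read 12.74 to 13.2. Replicate 3 was marked for Ccdc189 at 6.99 (7.2 to 7.22), Rbm3 at 10.87 (10.58) and Lox at 8.2 (6.8 to 6.88). Replicate 4 was marked for Sftpc at 11.57 (4.66 to 5.37).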

How the results depend on the processing

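The count of 296 genes changed between the mutants kept within 1.5 times under every probe set tested, the mean of probe sets, quantile normalization and median centring, and without R172K 4. It was 9 with the 8 mutant arrays alone, 449 without the dimmer genes, 179 with an intensity trend and robust variance, 1774 with array weights (R172K 3 and 4 weighted 0.365 and 0.366), 806 without control 3, R172K 3 and R140Q 4 together, 5 with Myl7 as a covariate (chosen after seeing the data), 1 at an adjusted p under 0.01 and 21 at 2-fold or more. The cause of these shifts was not tested. With an array left out it ran from 1 to 1577. Replicate numbers did not pair the samples: deviations of same-numbered R140Q and R172K hearts correlated at 0.0164, 0.000754, -0.336 and -0.114, and with the number as a block 11 genes were called. Over 235 named genes and 23 alternatives, 4167 of 5359 values kept their side of the threshold and their direction, 1049 no longer passed, 143 newly passed and no called gene reversed. The number of arrays limits which differences can be detected.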

Other observations

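A few genes of haem synthesis were picked because they were called lower in R172K than in R140Q hearts, so they say nothing of such genes as a group. The mitochondrial glycine carrier gene Slc25a38, needed for haem synthesis, fell by 0.49 (limma adjusted p = 0.0463), the uroporphyrinogen synthase gene Uros by 0.67 (adjusted p = 0.0463) and the porphyrin transporter gene Abcb6 by 0.72 (adjusted p = 0.0463). Slc25a38 read 8.72, 8.50, 8.68 and 9.04 in R140Q and 8.33, 8.13, 8.29 and 8.23 in R172K hearts, with control at 8.90 to 9.21. R172K 3 overlapped R140Q for Uros (7.48 against 7.46 in R140Q 3) and not for Slc25a38 or Abcb6. The erythroid synthase gene Alas2 did not pass (-0.73, adjusted p = 0.678). It read 9.03 to 9.51 in R140Q hearts, 5.86 in R172K 2 and 8.92 to 9.67 in the other R172K hearts.

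Transaminases of alanine and branched-chain amino acids were low in both mutants beside control and did not pass between them. Gpt2 read 7.30, 7.70, 6.95 and 7.21 in R140Q and 6.58, 6.63, 7.49 and 6.66 in R172K hearts (-0.45, adjusted p = 0.278), with control at 8.21 to 8.51. Bcat2 differed by -0.22 (adjusted p = 0.408). Of the sex-linked genes, Xist was dim in all 12 hearts, at 3.73 to 4.25, Uty fell by 0.31 in R172K against R140Q hearts (adjusted p = 0.0456) and Eif2s3y differed by 0.23 (adjusted p = 0.167). The core clock gene Arntl differed by 0.95 (adjusted p = 0.0673) and its output Dbp by -0.70 (adjusted p = 0.0614). Their 4 against 4 arrays did not overlap for Arntl (6.02 to 6.41 in R140Q, 6.48 to 7.92 in R172K) and overlapped for Dbp.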
